A study of Rattus norvegicus with 5 samples.

Results

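DNA enriched by an antibody against N6-methyladenine (6mA) was examined at 10 rat genes of presynaptic vesicle release, out of 23553 symbols named anywhere in the deposited peak annotation. The 10 genes are Snap25, Stxbp5, Stxbp5l, Syt1, Rims1, Rims2, Unc13c, Cadps, Cadps2 and Syn2. A peak was assigned to one of them when the annotation named the gene as promoter, upstream or downstream flank of 2 kb, exon, intron or gene body. The genes were chosen for their role and not by a measured value, but earlier results of these data were known at the choice. Every one of the 10 had at least 1 region in the 9 annotated lists.

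Rat genomic DNA of 3 cell types was profiled, with 1 immunoprecipitated library each: Astrocytes, Neurons and NSCs (neural stem cells). The NSCs are the SCR022 line, a commercial line of adult rat hippocampal stem cells, and so represent 1 line. The labels give neither the source of the Neurons and Astrocytes nor their genotype, age or treatment, and do not say whether they were derived from the NSCs. The submitters' samples include input libraries, which are sheared DNA without enrichment, for Neurons and NSCs. The immunoprecipitated libraries held 15767015 reads in Astrocytes, 16095308 in Neurons and 15760246 in NSCs, and 86.55% to 87.94% of them mapped uniquely. With 1 library per cell type there was no spread between replicates, and no test between cell types was made. The files hold no expression values, so the labelled cell types were not checked against marker RNAs, and no level of these genes' transcripts or proteins was measured. Whether an enriched region carries 6mA was not checked by a second method.

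Neurotransmitter leaves a terminal when a synaptic vesicle fuses with the plasma membrane. SNARE proteins on both membranes pull them together, priming factors make docked vesicles ready, and a calcium sensor triggers fusion when an action potential opens calcium channels. Active-zone scaffolds hold vesicles and channels at the release site, while synapsins tether the reserve of vesicles behind it. Adenine methylation at N6 is a common DNA mark in bacteria; its abundance in mammalian DNA is low and debated.

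The 10 genes together held 151 peaks over input in Astrocytes, 192 in Neurons and 170 in NSCs. At least 1 peak was found at 9 of the 10 genes in Astrocytes, where 39.5% of 23154 protein-coding genes had one. In Neurons it was 9 of 10, against 42.3% of all genes, and in NSCs 10 of 10, against 39.3%. Most of these genes are very long, and the comparable group is the 3179 coding genes at least as long as the shortest of them, Snap25 with 81.9 kb. Of that group 85.6% had a peak in Astrocytes, 86.4% in Neurons and 85.6% in NSCs, so the share of release genes with a peak was near that of other long genes. Coding genes that the peak annotation never names count as without a peak in all shares and length classes given here. Nearly all of the peaks were named as intron alone, at 97.4% in Astrocytes, 98.4% in Neurons and 97.1% in NSCs. No such share of other long genes is set beside these, so they do not set the release genes apart. Each peak carries a fold over input and a score of 10 times the −log10 p, both the authors' own. By the labels of the lists each cell type's fold is relative to its own input, although the submitters' samples include none for Astrocytes. Folds are given side by side without a test. The median fold of the release gene peaks was 12.7 in Astrocytes, 13.3 in Neurons and 13.0 in NSCs, beside 12.3, 12.1 and 12.2 over all peaks of the same lists.

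**Figure D1:**
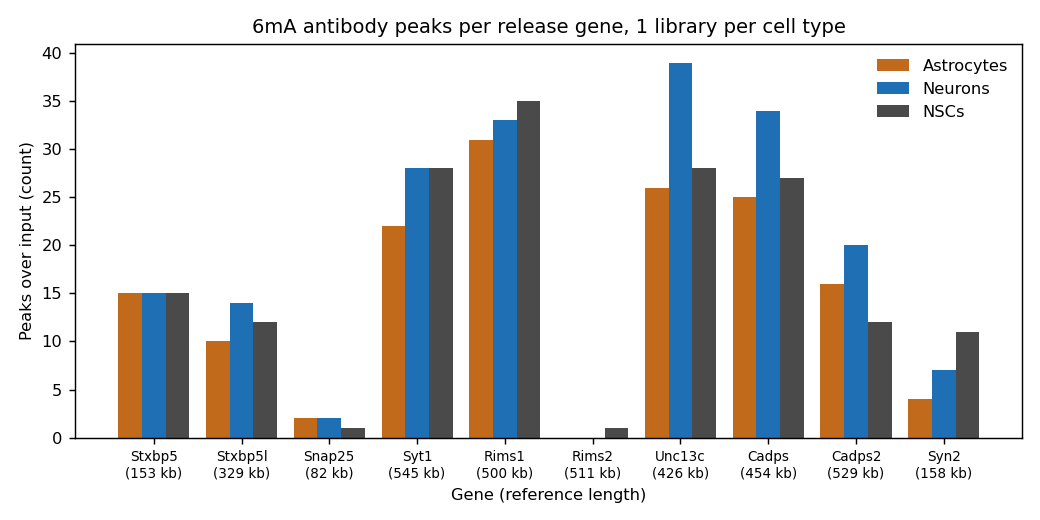
Number of 6mA antibody peaks over input at each of the 10 release genes, with Astrocytes, Neurons and NSCs side by side and the reference length of the gene under its name. Each bar is a count from 1 library without an error. Stxbp5 had 15 peaks in each cell type at 153 kb, whereas Rims2, at 511 kb, had 0, 0 and 1. The regions that name Rims2 span only 3.80 kb, so its count does not describe the whole gene.

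Counts were divided by the gene length of the RefSeq annotation of the GRCr8 assembly to allow genes to be set beside each other. The median over the 10 genes was 3.54 peaks per 100 kb in Astrocytes, 4.79 in Neurons and 5.54 in NSCs. In the top length decile of coding genes, which holds 2316 genes and 9 of the 10 release genes, the median was 3.03 in Astrocytes, 3.65 in Neurons and 3.09 in NSCs. Against the genes of their own length class, 4 release genes lay above the upper quartile in Astrocytes, 4 in Neurons and 6 in NSCs. Stxbp5, Rims1, Unc13c and Cadps were above it in all 3 cell types, and Syt1 and Syn2 in NSCs. Rims2 lay below the lower quartile in all 3. The regions that name it spanned 0.744% of its length, so its value, which also enters the medians over the 10 genes, does not describe the whole gene. Over the 10 genes the Spearman rho of peak number with length was 0.358 in Astrocytes, 0.321 in Neurons and 0.367 in NSCs. Without Rims2 the rho was 0.683, 0.633 and 0.639 in the same order of cell types (9 genes, which share libraries and are not replicates).

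Snap25, the SNARE of the plasma membrane that pairs with syntaxin and synaptobrevin, was the shortest gene and had few peaks. Astrocytes had 2 peaks at Snap25, Neurons 2 and NSCs 1, and no peak of one cell type overlapped one of another. Peaks of 1 cell type alone were common, at 45999 of the 83986 stretches of overlapping peaks in all genes. The Astrocyte peaks of Snap25 lay at chr3:129782454-129782774 in an intron (fold 11.5) and at chr3:129789723-129789969 in the downstream flank (fold 10.2). Neurons had both of theirs in introns, at chr3:129714624-129714883 (fold 10.9) and chr3:129730057-129730605 (fold 9.0). The single NSC peak, chr3:129790356-129790945 with a fold of 15.3, was again in the downstream flank, close to the Astrocyte one without touching it. The Astrocyte flank peak was listed in the authors' deposited tables as higher in Astrocytes than NSCs (fold 10.6) and higher in Astrocytes than Neurons (fold 10.4). The NSC flank peak was listed there as higher in NSCs than Astrocytes (fold 9.09), so adjacent pieces of the same flank were listed in opposite directions. Snap25 was the only gene of the 10 with a peak in a flank, and no share of all genes with a flank peak is set beside this.

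Stxbp5 and Stxbp5l encode the tomosyns, which bind syntaxin and SNAP25 and hold back the formation of fusion-ready SNARE complexes. Stxbp5 (chromosome 1) had 15 peaks in Astrocytes, 15 in Neurons and 15 in NSCs, or 9.82 per 100 kb, the densest of the 10 genes in every cell type. That density exceeded the one of 98.4% of genes in its length class in Astrocytes, 97.0% in Neurons and 98.4% in NSCs. Its peaks merged into 21 loci, stretches of overlapping peaks from any cell type. Of these loci, 10 held a peak in all 3 cell types (47.6%, beside 25.0% of loci in all genes). The strongest was chr1:4001694-4002280 in an intron, with a fold of 90.6 in Astrocytes, 187 in Neurons and 88.2 in NSCs, and it was listed in no comparison. A neighbour, chr1:4001101-4001586, had folds of 22.7 in Astrocytes, 42.3 in Neurons and 12.0 in NSCs and was listed in none either. Both lay at the high-coordinate end of the gene's 128 kb of regions.

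Elsewhere in Stxbp5 the cell types were listed as different. The locus chr1:3900413-3901108, which covers an exon, had a fold over input of 66.2 in Astrocytes, 74.9 in Neurons and 25.9 in NSCs. The authors' deposited table listed it as higher in Astrocytes than NSCs with a fold of 7.71, and no table listed it between Neurons and NSCs. At chr1:3929016-3929937 the fold over input was 36.9 in Astrocytes, 43.8 in Neurons and 19.5 in NSCs, and the locus was listed as higher in Neurons than Astrocytes. The locus chr1:3975419-3976352 had 14.3 in Astrocytes, 13.3 in Neurons and 31.9 in NSCs and was listed as higher in NSCs than Neurons. A peak found in Neurons alone, chr1:3963049-3963420 (fold 17.6), had the largest fold of any Stxbp5 region in a comparison, 16.2 over Astrocytes in the authors' deposited table.

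Stxbp5l (chromosome 11) had 10 peaks in Astrocytes, 14 in Neurons and 12 in NSCs, which at 329 kb was within the middle range of its length class. It was the only release gene with a peak in its promoter class. No share of all genes with a promoter peak is set beside this, so it does not set Stxbp5l apart. Neurons had the peak at chr11:66246744-66247142 (fold 13.3, score 85.0), which reached into an exon and an intron. NSCs had an overlapping one at chr11:66246881-66247317 (fold 8.78, score 50.8), just above the minimum score of 50 that the lists use. Astrocytes had none there, and the promoter was listed in no comparison.

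The 250 reference bases before the start of both tomosyn genes are shown because one promoter held a peak and the other, in the densest gene, did not. They run 5′ to 3′ on the gene's strand and come from RefSeq (GRCr8, chromosome 11 plus strand for Stxbp5l and chromosome 1 minus strand for Stxbp5). Capitals mark the pentamers GAGGC or GAGGT and CAGGC or CAGGT on either strand, which have been reported around 6mA in human DNA; no marked match overlaps another.
Stxbp5l: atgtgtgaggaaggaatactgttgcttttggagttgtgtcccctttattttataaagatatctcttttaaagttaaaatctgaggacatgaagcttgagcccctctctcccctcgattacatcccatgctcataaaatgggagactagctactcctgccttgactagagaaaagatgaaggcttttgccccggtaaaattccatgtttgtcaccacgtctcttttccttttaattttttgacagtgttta
Stxbp5: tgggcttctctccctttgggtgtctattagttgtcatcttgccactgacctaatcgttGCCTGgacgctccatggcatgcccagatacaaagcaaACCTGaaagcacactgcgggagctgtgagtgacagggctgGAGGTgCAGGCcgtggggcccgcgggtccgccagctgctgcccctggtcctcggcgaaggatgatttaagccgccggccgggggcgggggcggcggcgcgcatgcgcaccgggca
The Stxbp5l promoter held 0 matches, with 25.2% A, 39.6% G or C and 3 CpG. The Stxbp5 promoter held 4 matches, with 16% A, 64.8% G or C and 19 CpG. Over 33469 rat promoters of the same length 90.7% held a match, with a median of 3 matches, 24% A and 51.2% G or C. The sources used here do not name the build of the peak files, so whether the Stxbp5l peaks cover these bases was not analysed. Of the 10 genes, 8 had a promoter in the table; Snap25 and Rims2 did not.

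Past its promoter Stxbp5l had a strong locus common to the 3 libraries, chr11:66250229-66251191, with a fold of 53.4 in Astrocytes, 49.4 in Neurons and 49.6 in NSCs. It was listed in no comparison. The locus chr11:66406980-66407693 had 20.4 in Astrocytes, 49.5 in Neurons and 29.6 in NSCs and was listed as higher in Neurons than Astrocytes. Among the peaks of 1 cell type, chr11:66351061-66351362 in Neurons (fold 16.9) was listed with a fold of 18.2 over Astrocytes in the authors' deposited table. The Astrocyte peak chr11:66418947-66419317 (fold 16.5) was listed there with 17.3 over NSCs and 6.87 over Neurons. Of 22 loci in Stxbp5l, 13 held a peak in 1 cell type and 5 in all 3, beside 45999 and 21022 of the 83986 loci in all genes.

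Syt1, the vesicle's calcium sensor for fast synchronous release, had 22 peaks in Astrocytes, 28 in Neurons and 28 in NSCs (chromosome 7, 545 kb). The intronic locus chr7:50233352-50234373 had a fold of 103 in Astrocytes, 115 in Neurons and 81.8 in NSCs, and was listed in no comparison. Its score was 3100 in each, a value that 406 Astrocyte, 427 Neuron and 227 NSC peaks share, so equal scores here do not rank the cell types. No other Syt1 locus came near it. The next was chr7:50378420-50378954, with 36.9 in Astrocytes, 20.2 in Neurons and 20.1 in NSCs, listed as higher in Astrocytes than NSCs. Of 47 Syt1 loci, 8 held a peak in all 3 cell types (17.0%) and 24 in 1. In all genes, 21022 of 83986 loci (25.0%) held a peak in all 3 and 45999 in 1.

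Loci of 1 cell type in Syt1 were 7 in Astrocytes, 9 in Neurons and 8 in NSCs. The Neuron peak chr7:50268161-50268664 had a fold of 25.4 over input, the largest of the 146 release gene loci with a peak in 1 cell type. Another Neuron peak, chr7:50144842-50145177, had 20.7 over input. It was listed with 22.2 over NSCs and 23.4 over Astrocytes in the authors' deposited tables, the largest folds of the 10 genes in those tables. In the other direction, chr7:50330623-50330852 had a peak in NSCs alone (fold 15.0) and was listed with 14.8 over Neurons in the authors' deposited table. The NSC peak chr7:50254832-50255151 was listed with 14.4 over Astrocytes there.

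Rims1 and Rims2 encode RIM proteins, the active-zone scaffolds that bind Rab3 on vesicles, Munc13 and calcium channels. Rims1 (chromosome 9, 500 kb) had 31 peaks in Astrocytes, 33 in Neurons and 35 in NSCs. Its 54 loci were the most of the 10 genes, and 18 of them held a peak in all 3 cell types (33.3%, beside 25.0% in all genes). The strongest, chr9:28652337-28653085, had a fold of 66.2 in Astrocytes, 95.7 in Neurons and 93.3 in NSCs and was listed in no comparison. Several more strong loci followed it along the gene. The fold at chr9:28811803-28812687 was 50.9 in Astrocytes, 62.1 in Neurons and 41.2 in NSCs. At chr9:28769742-28770877 it was 52.2 in Astrocytes, 60.4 in Neurons and 26.9 in NSCs, and at chr9:28782163-28783018 it was 56.0, 49.5 and 25.0 in the same order. None of these was listed in a comparison.

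A listed Rims1 locus was chr9:28546959-28547603, with 44.5 in Astrocytes, 32.3 in Neurons and 35.1 in NSCs, named as higher in Astrocytes than in both other cell types. At chr9:28746154-28746885 the fold was 15.7 in Astrocytes, 32.6 in Neurons and 19.6 in NSCs, and it was named as higher in Neurons than in both others. NSCs had peaks of their own at chr9:28703049-28703558 (fold 20.8) and chr9:28776975-28777498 (fold 18.8), each listed as higher in NSCs than in both others. A region of Rims1 in an exon and a CpG island, chr9:28659232-28659588, was listed as higher in Neurons than Astrocytes (fold 9.10 in the authors' deposited table). It was the only region of the 10 genes in a CpG island, and no share of all regions in CpG islands is set beside this.

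Rims2, of like length to Rims1, was named by 1 peak over input, chr7:78569468-78569791 in NSCs (fold 8.55, score 51.3). That peak was listed with 12.2 over Neurons and 10.6 over Astrocytes in the authors' deposited tables, and chr7:78565991-78566358 with 11.7 in Astrocytes over Neurons. All 4 regions that name Rims2 lie within 3.80 kb, or 0.744% of the length of the gene in GRCr8. For the other 9 genes the regions spanned 71.9% to 100.2% of the reference length. The low Rims2 count therefore goes with a small annotated stretch.

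The DNA next to the Rims2 regions was examined after that count had been seen. In GRCr8 the gene LOC103692901 lies inside Rims2, and the files name it at chr7:78299534-78299981. If gene order in the files' build is as in GRCr8, the 270 kb from there to the Rims2 regions belong to Rims2. This stretch held 10 peaks in Astrocytes, 9 in Neurons and 12 in NSCs, of which 10, 9 and 10 named no gene. That is 3.70 peaks per 100 kb in Astrocytes, 3.33 in Neurons and 4.44 in NSCs, between the quartiles of the top length decile of genes. The peaks formed 20 loci, 5 of them with a peak in all 3 cell types, beside 25.0% of loci in all genes. The strongest had a fold of 54.7 at chr7:78537557-78538138 in Astrocytes, 43.9 at chr7:78537628-78538195 in Neurons and 58.6 at chr7:78537561-78538233 in NSCs. A region naming no gene, chr7:78471821-78472271, was listed with 18.5 in NSCs over Neurons in the authors' deposited table.

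**Figure D2:**
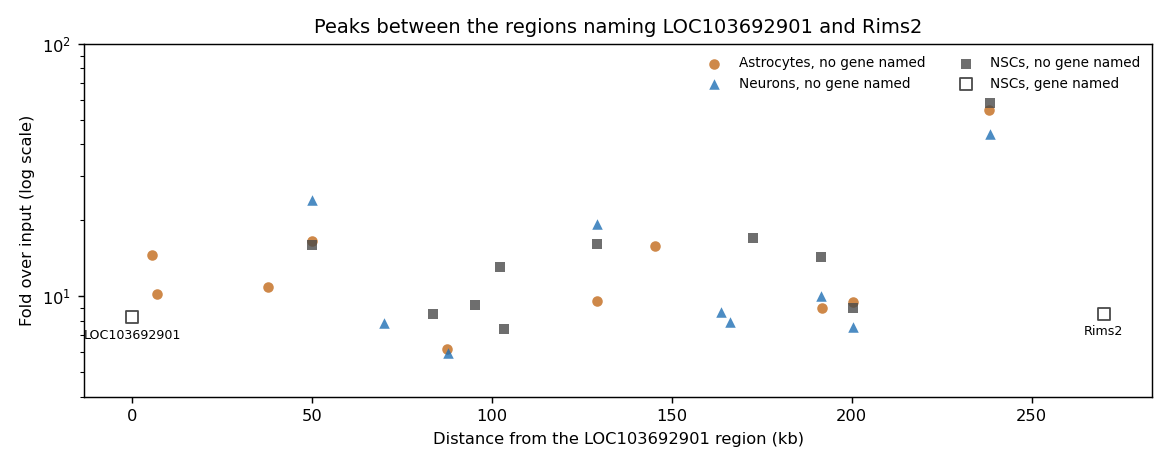
Peaks over input between the region that names LOC103692901 and the regions that name Rims2, by distance in kb (x) and the authors' fold on a log axis (y). Filled symbols name no gene in the annotation; the open squares are the NSC peaks that do. The cluster near 238 kb, with folds of 54.7 in Astrocytes, 43.9 in Neurons and 58.6 in NSCs, is in none of the gene counts.

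Unc13c encodes Munc13-3, a priming factor that opens syntaxin and is known from cerebellar granule cells. It had 26 peaks in Astrocytes, 39 in Neurons and 28 in NSCs (chromosome 8, 426 kb). The Neuron count was the largest among the 10 genes in any cell type, at 9.15 per 100 kb, above 95.8% of its length class. Its strongest locus, chr8:80460703-80461504, had a fold of 142 in Astrocytes, 75.4 in Neurons and 97.7 in NSCs, and the Astrocyte and NSC peaks touched an exon. The second, chr8:80419380-80420101, had 65.0 in Astrocytes, 96.0 in Neurons and 86.4 in NSCs. Neither was listed in a comparison. At chr8:80347531-80348179 the fold was 33.1 in Astrocytes, 24.2 in Neurons and 8.25 in NSCs, and this locus was listed as higher in both than in NSCs.

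Unc13c regions were listed most often as higher in Neurons. The authors' deposited tables held 11 regions higher in Neurons than Astrocytes against 1 higher in Astrocytes, and 9 higher in Neurons than NSCs against 3 higher in NSCs. Between Astrocytes and NSCs there were 6 and 5. Regions of all genes leaned to Neurons too, with 16110 against 6824 higher in Astrocytes and 13311 against 10959 higher in NSCs. The largest Neuron folds in the authors' deposited tables were 17.7 over Astrocytes at chr8:80446281-80446639 and 16.8 over NSCs at chr8:80384542-80385105. A Neuron peak in an exon, chr8:80399555-80400046, had a fold of 12.1 over input.

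Cadps and Cadps2 encode CAPS proteins, which prime dense-core vesicles, the carriers of peptides and neurotrophins. Cadps (chromosome 15, 454 kb) had 25 peaks in Astrocytes, 34 in Neurons and 27 in NSCs. Its strongest locus, chr15:15381818-15382424, had a fold of 40.7 in Astrocytes, 30.2 in Neurons and 74.0 in NSCs. It was listed as higher in NSCs than Neurons and higher in NSCs than Astrocytes. The locus chr15:15560647-15561495 had 48.1 in Astrocytes, 30.3 in Neurons and 48.2 in NSCs and was not listed. In contrast, chr15:15392422-15393076 had 11.4 in Astrocytes, 32.6 in Neurons and 29.9 in NSCs and was listed as lower in Astrocytes than in both others. At chr15:15563943-15564710 the fold was 33.6 in Astrocytes, 31.8 in Neurons and 16.2 in NSCs, listed as higher in both than in NSCs. An exon of Cadps held a peak in Astrocytes (chr15:15641542-15642076, fold 20.1) and in NSCs (chr15:15641494-15642225, fold 21.1). Neurons also had a peak at this locus (fold 15.2), and the locus was listed in no comparison.

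Cadps2 (chromosome 4, 529 kb) had 16 peaks in Astrocytes, 20 in Neurons and 12 in NSCs, within the middle range of its length class. One broad intronic locus stood out, chr4:50712612-50713873, with a fold of 63.6 in Astrocytes, 58.0 in Neurons and 41.9 in NSCs, and it was not listed. The next strongest in any cell type was chr4:50612383-50613075, with 12.7 in Astrocytes, 17.4 in Neurons and 22.6 in NSCs. Of 32 Cadps2 loci, 20 held a peak in 1 cell type and 4 in all 3, beside 45999 and 21022 of the 83986 loci in all genes. The Astrocyte peak chr4:50755847-50756309 (fold 16.5) was listed with 17.3 over NSCs and 12.9 over Neurons in the authors' deposited tables. A region of Neurons, chr4:50818620-50819050, was listed with 14.8 over NSCs there.

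Syn2, which encodes synapsin II, a phosphoprotein that tethers the reserve pool of vesicles, had 4 peaks in Astrocytes, 7 in Neurons and 11 in NSCs (chromosome 4, 158 kb). Per 100 kb that was 2.53 in Astrocytes, 4.43 in Neurons and 6.97 in NSCs, the last above 91.9% of the length class. Few of the NSC peaks were strong: 2 of the 11 passed the median score of all peaks, 87.4, as did 2 of the 7 in Neurons and 0 of the 4 in Astrocytes. Its strongest locus, chr4:147166906-147167786, had a fold of 11.7 in Astrocytes, 24.5 in Neurons and 18.8 in NSCs and was listed as lower in Astrocytes than in both others. The comparison lists did not follow the peak counts, with 4 regions higher in Neurons than NSCs and 2 higher in NSCs. An NSC peak, chr4:147132147-147132485 (fold 16.3), was listed with 16.0 over Neurons in the authors' deposited table. An Astrocyte peak, chr4:147056904-147057330 (fold 12.7), was listed with 13.3 over NSCs.

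**Figure D3:**
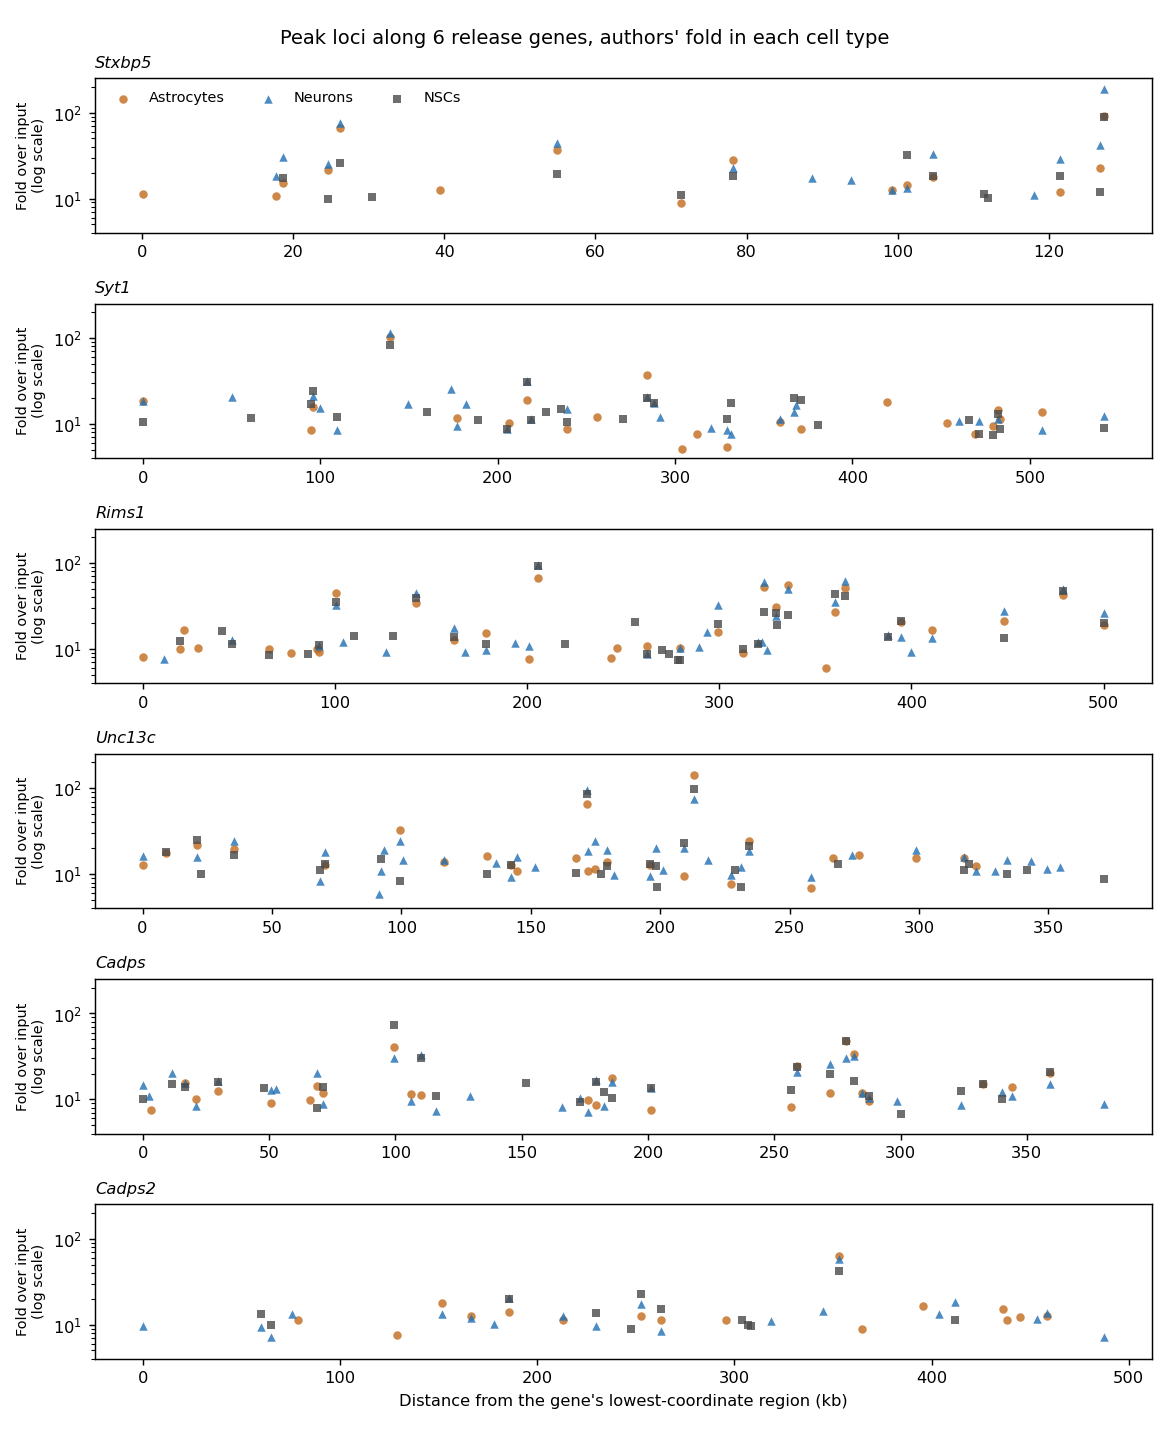
Peak loci along Stxbp5, Syt1, Rims1, Unc13c, Cadps and Cadps2, by distance in kb from each gene's lowest-coordinate region (x) and the authors' fold over input on a log axis (y), with 1 symbol per cell type. The tallest loci carry all 3 symbols, such as the Stxbp5 locus with 90.6 in Astrocytes, 187 in Neurons and 88.2 in NSCs and the Syt1 locus with 103, 115 and 81.8, while single symbols crowd the lower range.

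Over the 10 genes the peaks merged into 291 loci. A peak in all 3 cell types was present at 74 of them (25.4%, exact 95% interval 20.5 to 30.8), beside 25.0% of the 83986 loci in all genes. Astrocytes and Neurons alone shared 27 loci (9.28%, against 7.64% in all genes), Astrocytes and NSCs 14 (4.81%, against 5.03%), and Neurons and NSCs 30 (10.3%, against 7.53%). Loci of 1 cell type numbered 36 in Astrocytes (12.4%, against 15.4%), 61 in Neurons (21.0%, against 22.5%) and 49 in NSCs (16.8%, against 16.8%). Counted by peaks, 47.7% of the Astrocyte peaks of these genes overlapped a peak of both other cell types, beside 45.8% of all Astrocyte peaks. The share was 37.0% in Neurons, beside 38.6%, and 43.5% in NSCs, beside 43.6%. The release genes were thus near all genes in how their peaks were shared. The intervals cover counting error only, and neighbouring peaks are not independent.

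Strength and sharing went together at the release genes, as they did over all genes. The largest fold at a locus had a median of 11.3 where 1 cell type had a peak, 12.8 where 2 had and 24.9 where 3 had. All 20 loci with a fold of at least 40 in some cell type held a peak in all 3 cell types, and so did 50 of the 57 with at least 20 (87.7%). Over the loci of all genes this was 99.2% and 85.2% at the same folds, and the medians were 10.2, 13.1 and 23.8, so the pattern is a general one. A comparison table listed 89 of the 146 loci of 1 cell type (61.0%, beside 53.1% in all genes) and 24 of the 71 loci of 2 (33.8%, beside 44.8%). Of the 74 loci of 3 cell types 18 were listed (24.3%, beside 24.3%). Of the 10 loci with a fold of at least 60, spread over 6 genes, the tables listed 2 (20%, beside 34.6% over all genes), namely the exonic locus of Stxbp5 and the strongest locus of Cadps. The median of the largest score moved along, at 64.9, 91.0 and 284 for 1, 2 and 3 cell types, and the part of the score minimum in this relation was not tested. The largest value is also taken over more peaks where more cell types have one, which raises it by construction.

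**Figure D4:**
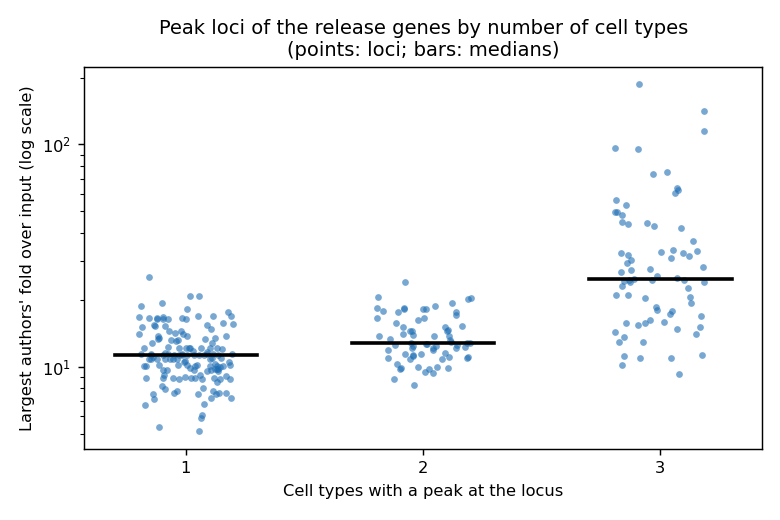
The 291 peak loci of the release genes by the number of cell types with a peak (x) and the largest authors' fold over input at the locus on a log axis (y); points are loci and bars are medians. The medians are 11.3, 12.8 and 24.9 for 1, 2 and 3 cell types, and every locus above 40 is in the group of 3.

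The 6 comparison lists set 1 immunoprecipitated library directly against another. Each pair of comparisons shares a library, so their values are given side by side. In the authors' deposited tables the release genes had 40 regions higher in Neurons than NSCs and 36 higher in NSCs. These lay in 8 and 9 of the 10 genes, while 23.2% and 20.5% of all coding genes, and 67.4% and 61.0% of the long ones, had such a region. For Astrocytes and NSCs the authors' deposited tables gave 32 regions higher in Astrocytes, in 9 genes, and 38 higher in NSCs, in 10 genes. The background was 18.6% and 22.3% of all coding genes and 57.7% and 66.0% of the long ones. For Astrocytes and Neurons they gave 21 regions higher in Astrocytes, in 10 genes, and 58 higher in Neurons, in 9 genes. Here the background was 15.3% and 25.6% of all coding genes and 49.1% and 70.6% of the long ones.

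The balance of directions at the release genes was near that of all genes. Regions higher in Neurons made up 52.6% of those between Neurons and NSCs (exact 95% interval 40.8 to 64.2), beside 54.8% over all named genes. Regions higher in Astrocytes made up 45.7% of those between Astrocytes and NSCs (33.7 to 58.1), beside 42.0%. Between Astrocytes and Neurons they made up 26.6% (17.3 to 37.7), beside 29.8%. The coordinates of the regions differed between the directions of a comparison. Of the release gene regions higher in the library named first, 90% in Neurons over NSCs, 81.3% in Astrocytes over NSCs and 76.2% in Astrocytes over Neurons had the exact coordinates of a peak over input of that library. Of those higher in the library named second, 36.1% in NSCs over Neurons, 31.6% in NSCs over Astrocytes and 34.5% in Neurons over Astrocytes did. Over all genes the shares were 81.3%, 76.9% and 74.4% for the library named first and 34.6%, 31.2% and 30.1% for the one named second, so this holds for the lists as a whole. How the authors made each direction is not stated. Its part in the counts of each direction was not tested.

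**Figure D5:**
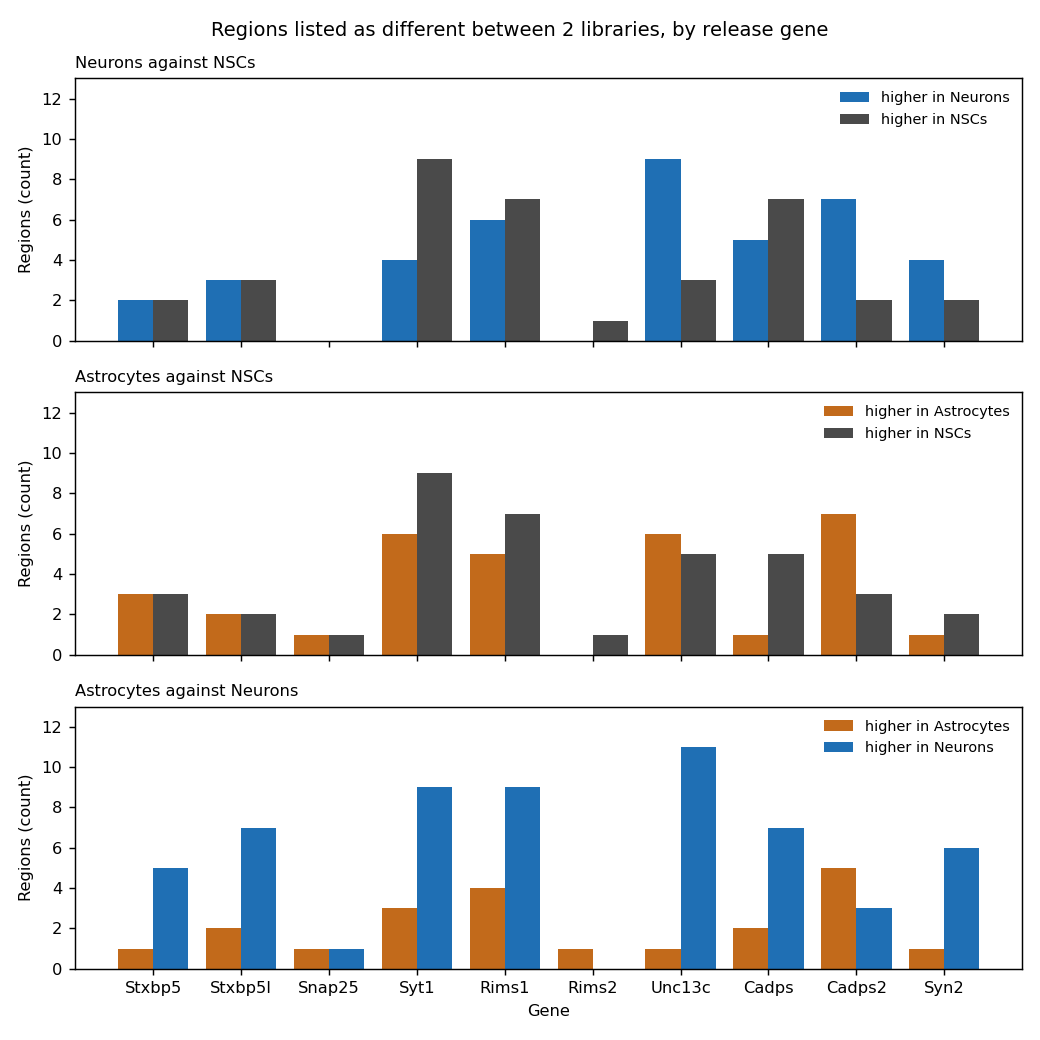
Number of regions listed as different between 2 libraries at each release gene, with 1 panel per comparison and 1 bar per direction. Unc13c has 11 regions higher in Neurons than Astrocytes and 1 higher in Astrocytes, while Cadps2 has 5 higher in Astrocytes and 3 higher in Neurons.

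Single genes departed from these totals, by counts too small to be more than a description. Between Neurons and NSCs the authors' deposited tables gave Unc13c 9 regions higher in Neurons and 3 in NSCs, and Cadps2 7 and 2. Syt1 had 4 higher in Neurons and 9 in NSCs in the same tables. Between Astrocytes and NSCs Cadps2 had 7 higher in Astrocytes and 3 in NSCs, and Cadps 1 and 5. Between Astrocytes and Neurons, Cadps2 was the only gene with more than 2 regions that had more higher in Astrocytes (5) than in Neurons (3). The largest fold per gene in the authors' deposited tables ran between 8.23 (Stxbp5) and 22.2 (Syt1) for Neurons over NSCs and between 9.4 (Cadps2) and 16.0 (Syn2) for NSCs over Neurons. It ran between 7.04 (Cadps) and 17.3 (Stxbp5l and Cadps2) for Astrocytes over NSCs, and between 8.03 (Stxbp5l) and 14.4 (Syt1) for NSCs over Astrocytes. For Astrocytes over Neurons it ran between 3.82 (Syn2) and 14.3 (Rims1), and for Neurons over Astrocytes between 9.82 (Snap25) and 23.4 (Syt1).

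Most listed regions of the release genes lay where only the higher library had a peak over input. This held for 30 of 40 regions higher in Neurons than NSCs, 25 of 36 higher in NSCs than Neurons, 19 of 32 higher in Astrocytes than NSCs and 29 of 38 higher in NSCs than Astrocytes. Between Astrocytes and Neurons it held for 13 of 21 regions higher in Astrocytes and 43 of 58 higher in Neurons. Over all genes the share was 65.4%, 61.1%, 63.3%, 62.2%, 68.0% and 61.5% in the same order. Regions with a peak in both libraries numbered 6, 2, 7, 4, 3 and 8, or 15%, 5.56%, 21.9%, 10.5%, 14.3% and 13.8%, beside 15.9%, 7.68%, 13.7%, 9.91%, 6.48% and 11.3% over all genes. The remaining 4, 9, 6, 5, 5 and 7 regions had no peak over input in the library listed as higher. Their shares were 10%, 25%, 18.8%, 13.2%, 23.8% and 12.1% in the same order, beside 18.7%, 31.2%, 23.1%, 27.9%, 25.6% and 27.2% over all genes. One of these regions was chr4:147116008-147117161 in Syn2, listed in the authors' deposited table as higher in Astrocytes than Neurons (fold 3.82). It overlapped a peak in Neurons (fold 5.34) and none in Astrocytes. In Cadps, chr15:15484106-15484707 was likewise listed as higher in Astrocytes than Neurons (fold 4.56), while its peak over input had a fold of 7.5 in Astrocytes and the peak overlapping it in Neurons 13.5.

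A wider list of 87 other presynaptic genes (SNAREs, synaptotagmins, Munc18 and Munc13 relatives, active-zone scaffolds, synapsins, Rab3 and recycling genes) showed peaks in 70 genes in Astrocytes, 70 in Neurons and 62 in NSCs. These genes are longer than most, with a median reference length of 52.7 kb against 15.5 kb over all coding genes. Of its 30 genes of at least 81.9 kb, 96.7% had a peak in Astrocytes, 100% in Neurons and 96.7% in NSCs, beside 85.6%, 86.4% and 85.6% of all coding genes that long. Of its 57 shorter genes, 71.9% had one in Astrocytes, 70.2% in Neurons and 57.9% in NSCs, beside 32.2%, 35.2% and 31.9% of all shorter coding genes. Within these broad classes the lengths were not matched further. Coding genes missing from the peak annotation count as without a peak, which can lower the shares of all coding genes, and their number was not examined. The most peaks over the 3 lists were held by long genes: Erc2, an active-zone scaffold, had 142, Mctp1, a membrane protein with C2 domains, 110, and Dnm3, a dynamin, 93. Ppfia2, a liprin scaffold, had 85 and Syn3, a synapsin, 62. In the comparison tables the authors deposited, 42 of the 87 genes had a region higher in Neurons than NSCs and 37 the reverse (48.3% and 42.5%, beside 23.2% and 20.5% of all coding genes). For Astrocytes against NSCs it was 34 and 41 (39.1% and 47.1%, beside 18.6% and 22.3%), and for Astrocytes against Neurons 30 and 52 (34.5% and 59.8%, beside 15.3% and 25.6%). Among the 30 long genes alone the shares were 73.3% and 70%, 60% and 73.3%, and 60% and 83.3%, beside 67.4% and 61.0%, 57.7% and 66.0%, and 49.1% and 70.6% of all long coding genes.

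The largest folds over input in that list were below the largest of the 10 genes in each cell type (142 in Astrocytes, 187 in Neurons and 97.7 in NSCs). In Astrocytes they were 85.8 at Sv2c, a vesicle glycoprotein, 80.7 at Erc2, 80.4 at Nsf, the ATPase that takes SNARE complexes apart, 78.4 at Otof and 73.9 at Rab3c. In Neurons they were 111 at Sv2c, 105 at Rab3gap1, 100.3 at Rab3b, 86.7 at Erc2 and 79.8 at Nsf. In NSCs they were 74.9 at Nsf, 63.9 at Napb, a cofactor of Nsf, 63.7 at Rab3c, 56.5 at Rab3b and 55.9 at Snap91, a clathrin adaptor.

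Direct comparisons also named genes of the list. The authors' deposited table of regions higher in Neurons than NSCs was led by Rims4 (22.2), Rab3gap1 (16.9) and Mctp2 (16.0), and the reverse one by Ppfia2 (17.3), Pclo (16.0) and Snph (15.6). Regions higher in Astrocytes than NSCs were led in the authors' deposited table by Stxbp4 (21.1), Syn1 (17.3) and, tied at 15.9, Mctp1, Pclo and Sv2c, and the reverse by Mctp1 (22.3), Synpr (19.0) and Cask (17.3). Higher in Astrocytes than Neurons, the authors' deposited table was led by Stxbp4 (18.2), followed by Rims3, Pclo, Erc2, Dnm3 and Rab3c tied at 14.3, and the reverse by Erc2 (18.4), Dnm3 (16.8) and Cask (16.4).

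The deposited enrichment tables of the authors include terms that hold release genes. Genes of the KEGG pathway Synaptic vesicle cycle, among them Snap25, Syt1, Rims1 and Unc13c, had a peak in 43 of 63 cases in Astrocytes, 43 in Neurons and 39 in NSCs. The numbers expected by the authors were 25.4 in Astrocytes, 28.0 in Neurons and 25.6 in NSCs. The adjusted p in the authors' deposited table was 0.0411 in Astrocytes, 0.128 in Neurons and 0.135 in NSCs. For the GO terms presynapse, synaptic vesicle, syntaxin binding, presynaptic active zone and calcium ion-regulated exocytosis of neurotransmitter, the adjusted p in the authors' deposited tables lay between 0.0942 and 0.948. The sources used here do not say how gene length was treated in these tests.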

How the data were processed

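Antibody-enriched DNA from 1 library per cell type and 2 inputs was used; the authors' Astrocyte list is labelled as made over an astrocyte input, whose read numbers were not used here. The authors aligned reads with BWA, per the submitters' processing notes; the sources used here name no version, genome build, annotation or peak caller version. Per the file headers, the mapping summary holds read counts and the uniquely mapped share as a percent. In the deposited lists each peak's score is 10 times the −log10 p-value, with a minimum of 50 (p of 1e-05), and its fold is a ratio that the authors computed over the input or, for comparisons, over another enriched library. Deposited enrichment tables give gene counts, ratios and p-values as the authors computed them.

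Regions naming a gene were read with pandas 2.3.3, and 6 blank lines were skipped. Peaks overlapping by at least 1 bp were called shared and merged into loci. Gene lengths, neighbours and promoters came from RefSeq (GRCr8), in which 10 of 10 genes and 87 of 87 listed genes matched by symbol; its coordinates were not mixed with those of the files. RefSeq coding genes that the peak annotation never names were kept as genes without a peak or region. Intervals are exact Clopper-Pearson at 95% (scipy 1.17.1). Genes named from the list are the 5 with the most peaks, the 5 largest folds per input list and the 3 largest per comparison list. Named loci are every promoter, exon or flank region, and a selection of the strongest peaks and comparison regions of each gene, besides loci chosen after their values were seen to show directions. Counting was tested on simulated data. The genes and lists were chosen with earlier results of these data known.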

Additional observations from a re-analysis of the deposited data

How the results depend on the processing

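Without replicates no test was run, and a setting could only move a count or a share. Kept to the stricter score (87.4 over input, 62.4 in the comparisons), the release genes held 82 peaks in Astrocytes, 101 in Neurons and 86 in NSCs. The comparison lists then held 22 regions higher in Neurons than NSCs and 15 the reverse, 16 higher in Astrocytes than NSCs and 20 the reverse, and 7 higher in Astrocytes than Neurons and 31 the reverse. With the stricter fold (12.1 and 9.53) there were 83 peaks in Astrocytes, 117 in Neurons and 93 in NSCs, and 24, 19, 19, 20, 11 and 31 regions in the same lists. With the stricter score, peaks found in both other cell types were 61.0% in Astrocytes, 49.5% in Neurons and 58.1% in NSCs. With that score in the counted list only they were 72.0%, 63.4% and 70.9%. The median peaks per 100 kb under the stricter score were 1.68 in Astrocytes, 2.53 in Neurons and 2.09 in NSCs. Among the 87 other genes the stricter score left 23 with a region higher in NSCs than Neurons, 22 higher in Astrocytes than NSCs, 22 the reverse, and 34 higher in Neurons than Astrocytes. These cuts remove regions by construction. Gene body regions alone, an overlap of at least 50% of the peak, the extent of a gene's own regions as its length, and leaving out regions that name another gene moved none of these totals by more than 1.5 times or past their interval. For single genes, 60 of 90 counts moved with the stricter score, 53 with the stricter fold and 5 with gene body regions alone. No paired analysis was possible because each group holds 1 library. Depth was near equal in the 3 enriched libraries but not in the inputs among the submitters' samples, which held 22329441 reads for Neurons and 27936774 for NSCs. The part of input depth in the folds over input was not tested. Signal below the score minimum is not in the lists, and differences between libraries and between cell types cannot be told apart.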

Other observations

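Of the 87 other presynaptic genes, 12 had no peak in any of the 3 lists over input. They are Stx4, Vamp2, Vamp3, Vamp4, Cplx3, Syp, Syngr1, Syngr2, Syngr3, Rab3a, Napa and Napg. Among them are core parts of the release machinery, such as synaptobrevin (Vamp2), synaptophysin (Syp) and the vesicle GTPase Rab3a. Their median reference length was 10.2 kb, against 64.1 kb for the genes of the list with a peak. A peak was also missing at most coding genes below 81.9 kb, of which 32.2% had one in Astrocytes, 35.2% in Neurons and 31.9% in NSCs. The comparison lists did name Vamp2, Vamp3, Vamp4, Syp, Syngr1 and Napg. Examples are Vamp2 in NSCs over Astrocytes (fold 8.6) and Syp in Neurons over Astrocytes (fold 11.2).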
